A study of Homo sapiens with 12 samples.

Results

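The major histocompatibility complex on the short arm of chromosome 6 was described here from 3 pooled peak lists of histone marks in HepG2 cells. All peaks that overlapped chromosome 6 from 29.6 to 33.4 Mb (GRCh37) were taken. They were divided by position into a class I section (29.6 to 31.4 Mb), a class III section (31.4 to 32.2 Mb) and a class II section (32.2 to 33.4 Mb). This gave 955 peaks of 273822 in all lists: 231 of 66586 H3K27ac peaks, 587 of 182755 H3K4me1 peaks and 137 of 24481 H3K4me3 peaks. One H3K4me1 peak crossed an outer bound, and no peak crossed the bounds between sections.

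HepG2, a widely used human cell line derived from a hepatocellular carcinoma, was grown without treatment. Chromatin immunoprecipitation and sequencing (ChIP-seq) was done with antibodies to H3K27ac, H3K4me1 and H3K4me3, with 3 libraries each, and with 3 control libraries that are titled input but whose antibody label is an anti-mouse immunoglobulin. The series' design text gives the ranking of candidate variants as the purpose of the marks. The lists hold 1 set of values per mark, so the spread between libraries and their depth are unknown, no difference was tested, and all comparisons are descriptions of these lists.

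H3K27ac marks active promoters and enhancers. H3K4me3 is typical of promoters, and H3K4me1 of enhancers and of the flanks of promoters. Class I molecules present peptides from inside the cell and are made by nearly all nucleated cells. Class II molecules (HLA-DR, HLA-DQ, HLA-DP) present peptides taken up from outside and are made mainly by professional antigen-presenting cells, under the coactivator CIITA. The class III section holds genes of many kinds, among them complement components made by the liver (C2, CFB, C4A, C4B), the cytokines TNF, LTA and LTB, and the heat shock genes HSPA1A, HSPA1B and HSPA1L. The class II section also holds genes for the supply of peptides to class I molecules: TAP1 and TAP2, which carry peptides into the endoplasmic reticulum, and PSMB8 and PSMB9, which are proteasome subunits.

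Gene names in this account are background. An annotation of GRCh37 was not used here, so no peak was assigned to a gene. In RefSeq's GRCh38 table, used only for the order of genes, 148 protein-coding genes lie from MOG, a myelin gene, to CUTA. There the class II section opens with TSBP1, BTNL2, HLA-DRA, HLA-DRB5, HLA-DRB1, HLA-DQA1, HLA-DQB1, HLA-DQA2, HLA-DQB2 and HLA-DOB. TAP2, PSMB8, TAP1, PSMB9, HLA-DMB, HLA-DMA, BRD2, HLA-DOA, HLA-DPA1 and HLA-DPB1 follow, and the last 18 genes run from COL11A2, a cartilage collagen, through RXRB, RING1, TAPBP and DAXX to CUTA.

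The region was rich in all 3 marks, and most of all in H3K4me3. It makes up 0.125% of the length of chromosomes 1 to 22 and X and held 0.560% of their H3K4me3 peaks (95% Wilson interval 0.474 to 0.662), a density 4.48 times that of the whole list. The H3K27ac share was 0.347% (0.305 to 0.395), or 2.77 times, and the H3K4me1 share was 0.321% (0.296 to 0.348), or 2.57 times. Intervals cover counting error only and treat neighbouring peaks as independent. Assembly gaps were left in the length of the chromosomes, which lowers the background densities. Against the rest of chromosome 6 the densities were 5.02 times (H3K4me3), 3.25 times (H3K27ac) and 2.69 times (H3K4me1) as high. In length, H3K4me1 covered 17.8% of the region (6.47% of chromosomes 1 to 22 and X), H3K27ac 9.84% (3.04%) and H3K4me3 7.35% (1.49%). At least 1 mark covered 21.4%, compared with 7.53% over the same chromosomes.

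Windows of the same length laid end to end along the chromosomes gave a scale for these counts. Assembly gaps were left in, so some windows could hold few peaks or none. Of the 787 windows of 3.8 Mb, 46 held no H3K27ac summit, 40 no H3K4me1 summit and 40 no H3K4me3 summit. By position of the peak summits, the region had more H3K4me3 peaks (137) than 777 of 787 windows of 3.8 Mb, whose median was 22. It had more H3K27ac peaks (231) than 754 of them, with a median of 65, and more H3K4me1 peaks (586) than 756, with a median of 194. The region was therefore near the top of the windows for each mark without being the densest for any: the highest window held 212 H3K4me3, 421 H3K27ac and 881 H3K4me1 peaks.

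**Figure D1:**
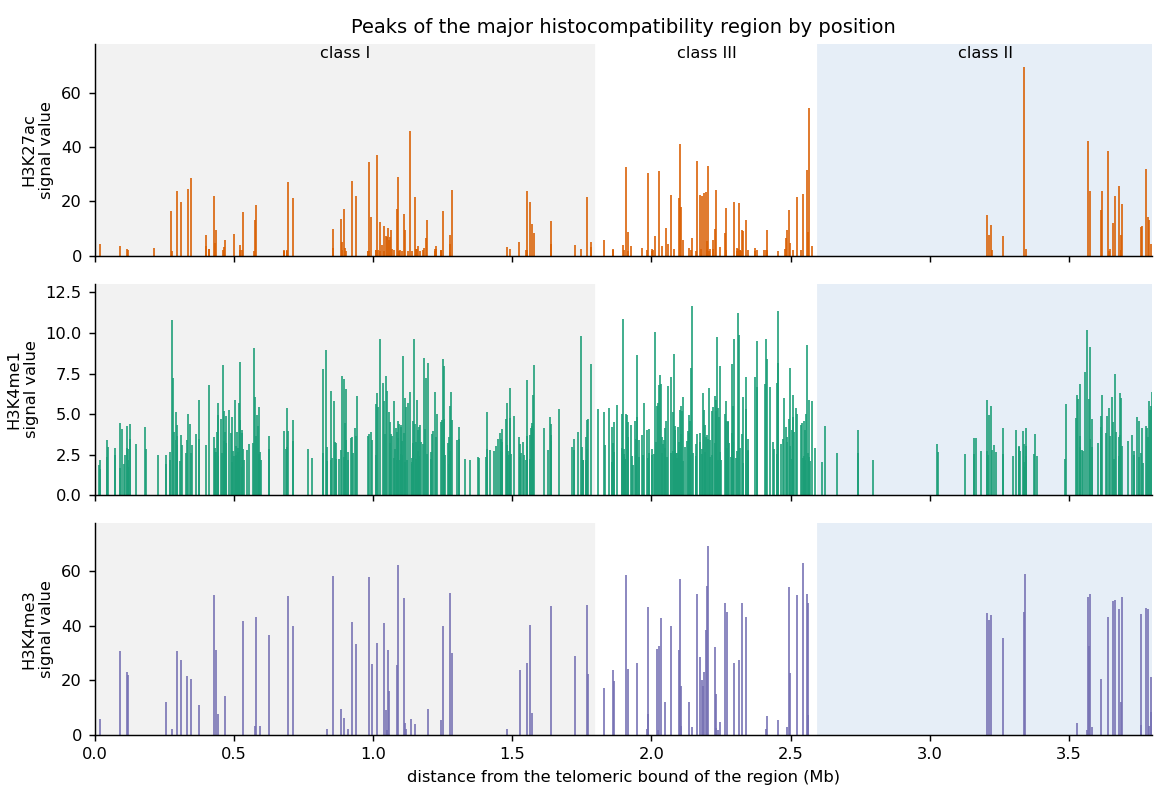
Peaks of each mark by distance from the telomeric bound of the region (Mb), with the authors' signal value of each peak as the height of its line and each panel on its own scale. Shading separates the class I, class III and class II sections. Lines are closely packed in class III, and the first part of class II carries no H3K27ac or H3K4me3 peak.

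The 3 sections differed strongly. Class III was the densest for each mark, class I came next and class II last. Class III carried 63.7 H3K4me3 peaks per Mb, class I 33.3 and class II 21.7, compared with 8.05 over chromosomes 1 to 22 and X. For H3K27ac the densities were 108, 65 and 23.3 per Mb, compared with 21.9. For H3K4me1 they were 248, 165.6 and 75.8 per Mb, compared with 60.1. This order held for each mark with a stricter q-value, with the stronger 50% of each list, with peaks within 1000 bp joined, and with equal numbers of peaks per list.

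Class III had more H3K4me3 peaks (51) than 3774 of 3782 windows of 0.8 Mb, more H3K4me1 peaks (198) than 3762 and more H3K27ac peaks (86) than 3730. Class I lay above 1636 of 1678 windows of 1.8 Mb for H3K4me3, above 1594 for H3K4me1 and above 1575 for H3K27ac. Class II was closer to the middle for H3K27ac and H3K4me1. Its 28 H3K27ac peaks exceeded 1611 of 2518 windows of 1.2 Mb and its 91 H3K4me1 peaks 1680, while its 26 H3K4me3 peaks exceeded 2295.

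**Figure D2:**
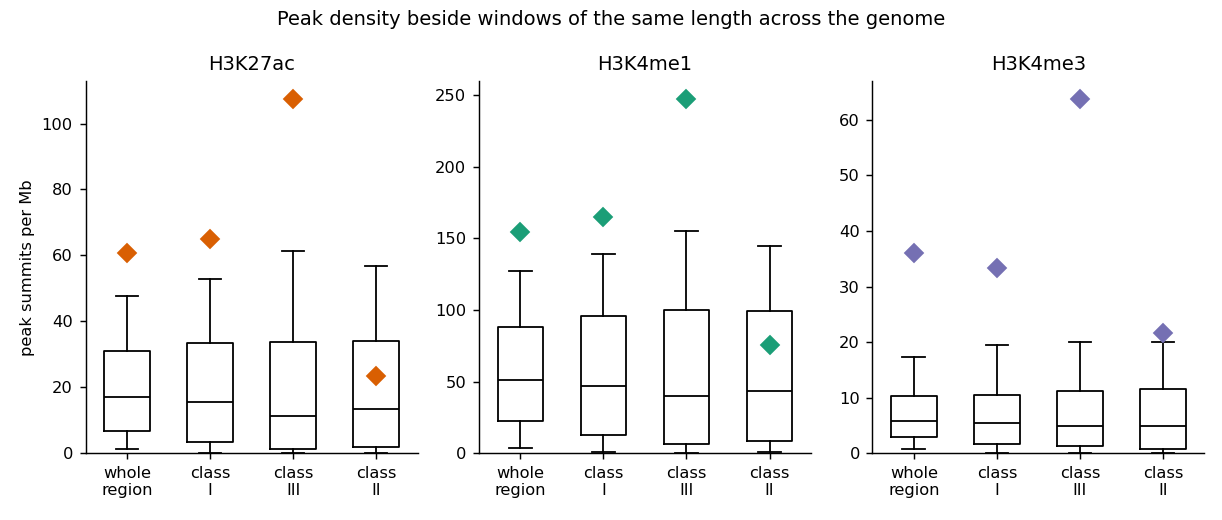
Peak summits per Mb in the whole region and in its 3 sections (diamonds), beside all windows of the same length on chromosomes 1 to 22 and X (boxes from the lower to the upper quartile with the median as a line, whiskers from the 10th to the 90th percentile). Class III lies far above the whiskers for each mark, whereas class II lies inside the box for H3K27ac and H3K4me1 and just above the whisker for H3K4me3.

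The class II section was made of an almost unmarked part and a richly marked one. No H3K27ac peak was called from 32178886 to 32805331, a stretch of 626.4 kb that begins just inside the class III section, and no H3K4me3 peak from 32164820 to 32805138, a stretch of 640.3 kb. The median gap between neighbouring peaks on chromosomes 1 to 22 and X was 4.08 kb for H3K27ac and 31.5 kb for H3K4me3. Such empty stretches are not rare, however: 818 of 66490 H3K27ac gaps in these chromosomes were longer, or 1.23%, and 55 of them lay on chromosome 6. For H3K4me3, 912 of 24423 gaps were longer than its stretch, or 3.73%.

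H3K4me1 alone had peaks wholly inside this acetylation-free stretch, 14 in number, which together covered 1.24% of it. A further 2 H3K4me1 peaks crossed its ends, and an H3K4me3 peak reached 193 bp into its far end. The signal values of the 14 ran from 2.08 to 4.26, 10 of them lay below the median of the H3K4me1 list (3.42), and 3 were wider than its median width of 696 bp. The strongest ran from 32222673 to 32223756 with a signal value of 4.26, and the widest from 32764518 to 32765790 with 3.52. The longest stretch of the region without a peak of any mark also lay here, from 32397765 to 32627480 (229.7 kb), followed by 32628309 to 32726728 (98.4 kb). Between them stood a pair of small H3K4me1 peaks, of 309 and 343 bp with signal values of 3.13 and 2.65. A stretch without a peak means that none was called, not that the mark was absent.

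All 5 of the longest stretches without a peak of any mark were in class II. The other 3 ran from 32987201 to 33085080 (97.9 kb), from 32267136 to 32341509 (74.4 kb) and from 32342523 to 32397463 (54.9 kb). The first of these falls in a second part without H3K27ac, from 32946355 to 33164754 (218.4 kb), in which the single H3K4me3 peak, from 33129317 to 33129840, was weak at a signal value of 4.33.

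The marked part of class II began where the stretch ended, which for H3K27ac follows from how the stretch was defined. All 28 H3K27ac and all 26 H3K4me3 peaks of the section lay between 32805139 and 33400000, which put their density there at 47.1 and 43.7 per Mb. H3K4me1 had 77 peaks with a summit after that point, 13 wholly before it within the section and 1 that crossed it. This division was made after the positions had been seen. The first H3K4me3 peaks at and after the end of the stretch were strong: 32805139 to 32806727 (signal value 44.5), 32810538 to 32812985 (41.9) and 32819914 to 32823128 (43.9). The H3K27ac peaks on them had signal values of 15.0, 7.49 and 11.3, with a weaker one of 2.25 on the third.

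A single H3K4me3 peak of 35.5 came next, from 32861460 to 32863587. The strongest H3K27ac peak of the whole region ran from 32934943 to 32941912 with a signal value of 69.6, rank 135 of the 66513 H3K27ac peaks on chromosomes 1 to 22 and X. It was overlapped by 2 H3K4me3 peaks, with signal values of 44.9 (32934852 to 32939764) and 58.8 (32939992 to 32943401), which covered 96.7% of it. In the last 200 kb, from 33200001 to 33400000, lay 19 of the 28 H3K27ac peaks, 14 of the 26 H3K4me3 peaks and 36 of the 91 H3K4me1 peaks of class II. This part was picked as the pair of neighbouring bins of 100 kb with the most summits of each mark in class II.

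**Figure D3:**
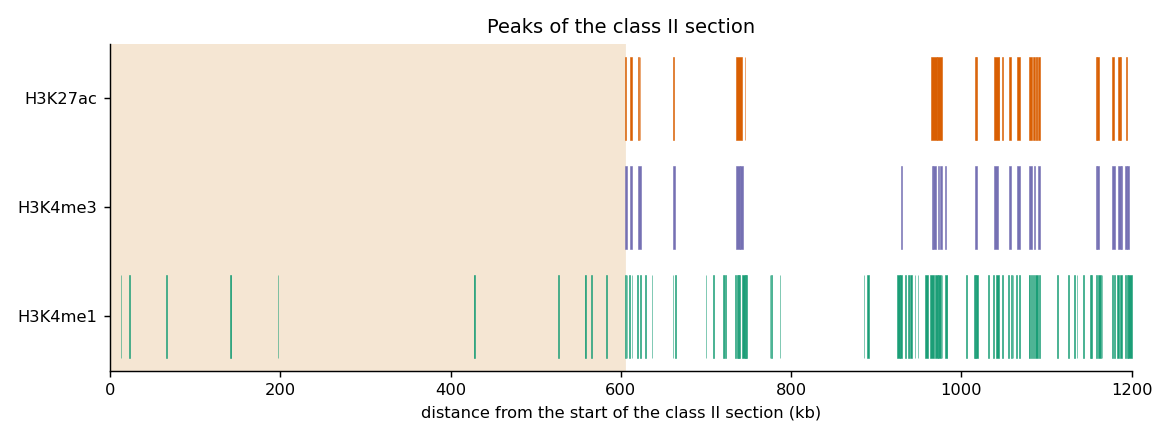
Called peaks of the class II section, each drawn as a block at its position and width (kb from the start of the section), with 1 row per mark. The shaded part is the stretch without H3K27ac, in which H3K4me1 peaks are small and few. The H3K27ac peaks follow after it, and the first H3K4me3 peak begins 193 bp before its end.

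The strength of the peaks also differed between sections. The signal value is the authors' own value for each peak and is compared only within a list. The median H3K4me3 signal value was 43.6 in class II, 26.2 in class III and 23.3 in class I, compared with 13.3 over the list. For H3K27ac it was 11.6 in class II, 3.43 in class III and 3.64 in class I, compared with 3.15. Over all peaks, class II therefore had the fewest of H3K4me3 and of H3K27ac and the highest medians of both. Among H3K27ac peaks that overlapped H3K4me3, however, the medians were closer, at 14.5, 11.8 and 13.0 in the same order, compared with 13.1. Among those that overlapped H3K4me1 without H3K4me3 they were 1.97, 2.31 and 2.17, compared with 2.62. Class II had the largest share of H3K27ac peaks with H3K4me3 (78.6%), so its high H3K27ac median goes with that mix. Of its 26 H3K4me3 peaks 15 lay above the upper quartile of the list (41.9), compared with 16 of 51 in class III and 10 of 60 in class I. Of its 28 H3K27ac peaks 17 lay above the upper quartile (8.74), compared with 29 of 86 and 38 of 117. H3K4me1 medians were closer together, at 3.61, 3.81 and 3.46 in the same order, compared with 3.42 over the list.

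For H3K4me3 the high medians did not go with a large share of the strongest peaks of the list. In the strongest 10% of the H3K4me3 list (a signal value of at least 54.9) the region had 8 peaks, or 5.84% of its own. It had 29 H3K27ac peaks (12.6%) and 70 H3K4me1 peaks (11.9%) in the strongest 10% of those lists. The highest H3K4me3 signal value in the region was 69.2, compared with 108.4 in the list, whose 24446 peaks make a higher maximum likely. Below the lower quartile of the list, 3.45, lay 20 of the 137 H3K4me3 peaks (14.6%).

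**Figure D4:**
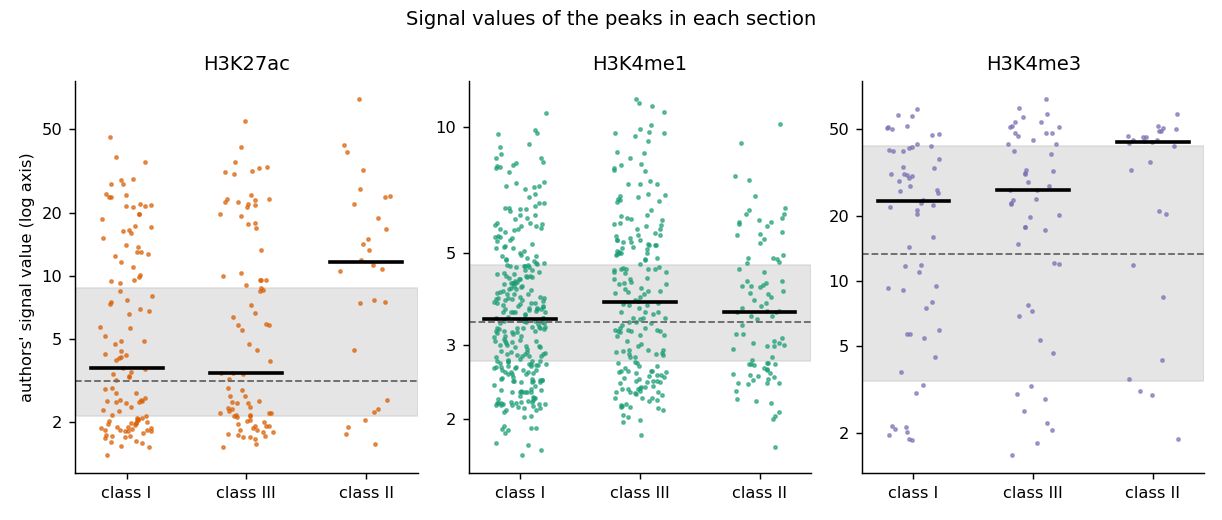
Signal value of each peak (points, log axis) in the 3 sections for each mark, with the section median as a black bar. The grey band spans the quartiles of the same list over chromosomes 1 to 22 and X and the dashed line is its median. Class II has few H3K27ac and H3K4me3 points, most of them high, whereas the H3K4me1 medians of the sections differ little.

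The marks were then combined. An H3K27ac peak that overlapped H3K4me3 by at least 1 bp is called promoter-like, and one that overlapped H3K4me1 without H3K4me3 enhancer-like. Of the 231 H3K27ac peaks of the region 123 were promoter-like (53.3%, 95% Wilson interval 46.8 to 59.6), compared with 31.7% of the list. Enhancer-like peaks numbered 101 (43.7%, 37.5 to 50.2), compared with 59.8%, and 7 peaks (3.03%, 1.47 to 6.12) overlapped neither methylation, compared with 8.52%. Promoter-like peaks thus outnumbered enhancer-like ones, with 122 for each 100, whereas over chromosomes 1 to 22 and X there were 53.0 for each 100. Both balances moved with the strictness of the lists, yet that of the region was the higher in each of the 5 other ways of counting. Relative to the list, H3K4me3 peaks were denser in the region than H3K27ac peaks, so a larger share with H3K4me3 goes with the count.

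The promoter-like share was highest in class II, with 22 of 28 (78.6%, 60.5 to 89.8). It was 46 of 86 in class III (53.5%, 43.0 to 63.7) and 55 of 117 in class I (47.0%, 38.2 to 56.0). The intervals of class I and class III overlap widely. Class II had 6 enhancer-like peaks, all weak, with a highest signal value of 2.55. Its promoter-like peaks reached 69.6. Enhancer-like peaks as defined here were weak in the whole region, with a median signal value of 2.22 and a highest of 12.4. Over the list their median was 2.62 and their highest 70.4, but that maximum is of 39769 peaks. The definition itself limits their strength, since a strong peak that touched any H3K4me3 was counted as promoter-like. One such peak in class I had a signal value of 45.9, and H3K4me3 covered 7.46% of it. Promoter-like peaks had a median of 13.2, close to the 13.1 of the list.

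The strongest enhancer-like peak ran from 30621446 to 30626517 in class I, with an H3K27ac signal value of 12.4. It lay wholly inside an H3K4me1 peak of 9.61. The next were 30663329 to 30664382 (9.45) and 31175704 to 31178153 (8.48), also in class I. Enhancer-like peaks of the region stood close to H3K4me3, at a median distance of 5.24 kb from the nearest such peak and 31.4 kb at most, compared with a median of 15.0 kb over the list. Since H3K4me3 peaks were dense here, short distances to them go with the count.

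Of the 587 H3K4me1 peaks 295 overlapped neither other mark (50.3%, 46.2 to 54.3), compared with 61.6% of the list. A larger share than in the list overlapped both, 186 peaks (31.7%) compared with 13.9%. Since both other marks were dense in the region, more overlap with them goes with the count. In class II 48 of 91 overlapped neither mark, and their median distance to the nearest H3K27ac peak was 25.5 kb. It was 2.64 kb for the 92 in class III, 5.05 kb for the 155 in class I and 7.91 kb over the list. Since H3K27ac peaks were sparser in class II than in the other sections, longer distances to them go with the count. The strongest H3K4me1 peak of class II that overlapped neither mark ran from 33157562 to 33160755 with a signal value of 7.61.

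**Figure D5:**
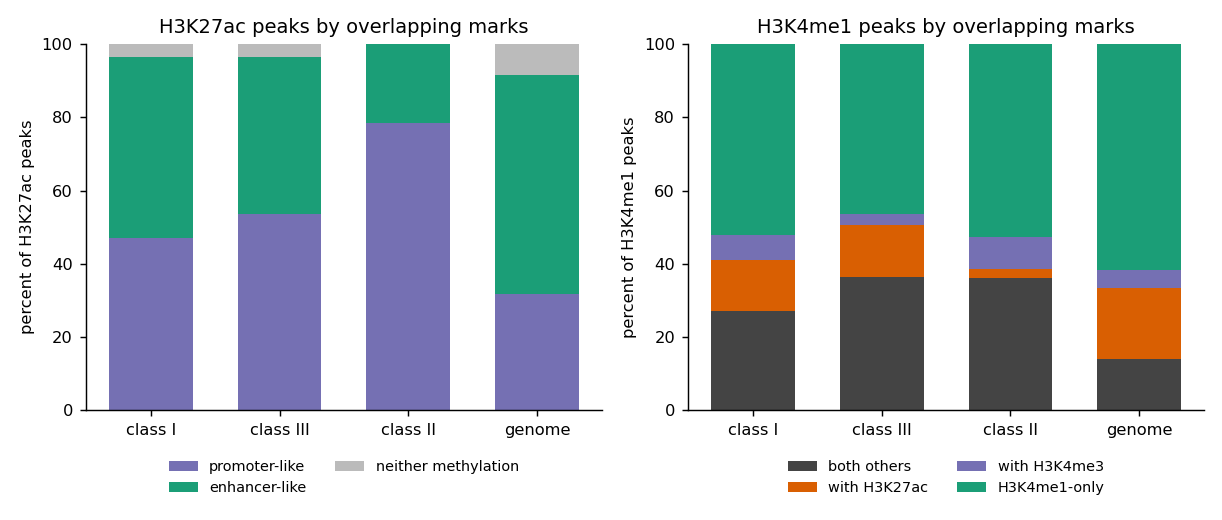
Percent of H3K27ac peaks (left) and H3K4me1 peaks (right) with each combination of overlapping marks, by section and over chromosomes 1 to 22 and X ("genome"). Promoter-like H3K27ac peaks are 78.6% in class II and 31.7% over the genome, and each section has fewer H3K4me1-only peaks than the genome in percent.

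Nearly all H3K4me3 peaks of the region carried other marks. H3K27ac overlapped 121 of the 137 (88.3%, 81.9 to 92.7), compared with 77.5% of the list. H3K4me1 overlapped 136 (99.3%), compared with 92.7%, and none of the 137 lacked both, which allows a share of up to 2.73% (upper Wilson bound), compared with 3.78% in the list. Since H3K27ac and H3K4me1 peaks were dense in the region, larger shares of overlap go with the count here too. The one H3K4me3 peak with H3K27ac but no H3K4me1 ran from 31324015 to 31325559 in class I, with a signal value of 28.8.

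As in the list as a whole, H3K4me3 peaks without H3K27ac were weaker than those with it. The 16 in the region had a median signal value of 6.42, compared with 30.5 for the 121 that overlapped it. Over the list these medians were 3.51 and 27.5. Each of the 16 overlapped H3K4me1. The strongest 3 were 30226797 to 30228224 in class I (36.7), and 31548578 to 31549910 (26.2) and 31465013 to 31467139 (19.8) in class III. The 4 in class II did not exceed 8.42. Over the list, H3K4me3 peaks that overlapped H3K4me1 but not H3K27ac had a highest signal value of 37.8.

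At the summits of H3K4me3 peaks acetylation was present and H3K4me1 often missing, as in the list as a whole. For the 92 peaks above the list median, 89 summits lay inside an H3K27ac peak (96.7%, 90.8 to 98.9) and 16 inside an H3K4me1 peak (17.4%, 11.0 to 26.4). At 1000 bp to the left and right of these summits H3K4me1 contained 59 (64.1%) and 72 (78.3%). Over the list 97.4% of such summits lay inside H3K27ac, which falls within the interval of the region, and the H3K4me1 shares were 9.78% at the summit, 53.9% to the left and 54.8% to the right. For H3K4me1 the interval of the region at the summit lies above the share of the list. By section, the summits inside H3K4me1 were 4 of 37 in class I, 9 of 36 in class III and 3 of 19 in class II. For the 45 weaker peaks 38 summits (84.4%) lay inside H3K4me1, compared with 71.4% in the list, and 31 (68.9%) inside H3K27ac, compared with 55.5%.

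In class I the peaks were densest near the middle, though most lay elsewhere in the section. The pair of neighbouring bins of 100 kb with the most summits was the same for each mark, from 30600001 to 30800000. Picked for its counts, it held 38 of the 117 H3K27ac peaks, 62 of the 297 H3K4me1 peaks with a summit in the section and 15 of the 60 H3K4me3 peaks. H3K27ac covered 35.4% of this part on average and H3K4me1 47.1%. Nearer to the end of the section no H3K27ac peak was called from 30883405 to 31082466 and no H3K4me3 peak from 30883398 to 31082544 (199.1 kb each). H3K4me1 was present there, with 23 peaks wholly inside the stretch without H3K27ac and signal values of 2.17 to 5.12.

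The strongest H3K27ac peak of class I, from 30725864 to 30739950, was 14087 bp wide and had a signal value of 45.9. H3K4me1 covered 94.1% of it, as 2 peaks of which the longer (30726158 to 30739117, 12960 bp) was the widest H3K4me1 peak of the region. A single weak H3K4me3 peak (5.68) covered 7.46% of it and did not contain its summit. It counts as promoter-like because any overlap with H3K4me3 sufficed. By width it ranked 83 in the H3K27ac list.

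The other leading H3K27ac peaks of class I were of the usual promoter-like kind. The peak from 30614082 to 30616463 (36.9) was covered to 91.1% by H3K4me3 of 33.4, and that from 30581979 to 30587166 (34.7) to 91.2% by H3K4me3 of 57.8. The highest H3K4me3 signal values of class I were 62.0 (30686980 to 30690589), 58.1 (30456732 to 30458498) and 57.8 (30582329 to 30587061). The second of these was 1767 bp wide, narrower than the other two, and H3K27ac of at most 9.90 covered 66.3% of it. All 3 summits lay inside H3K27ac and outside H3K4me1.

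The strongest H3K4me1 peaks of class I had other company. The peak from 29873630 to 29879341 (10.8) overlapped H3K27ac of 16.4 and weak H3K4me3 of 1.95. That from 31345160 to 31347000 (9.84) overlapped only weak H3K27ac of 2.26, and that from 30745884 to 30749712 (9.65) overlapped H3K27ac of 21.4 and weak H3K4me3 of 3.83.

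In class III at least 1 mark covered 36.9% of the section. The median gap between neighbouring H3K4me3 peaks was 6.86 kb, compared with 4.44 kb in class II, 18.4 kb in class I and 31.5 kb over the list. For H3K4me1 the class III median was 1.02 kb, compared with 1.87 kb over the list. For H3K27ac it was 4.32 kb, slightly longer than the 4.08 kb of the list. Each of its 8 bins of 100 kb held summits of each mark. The longest unbroken block of marks in the region lay here, from 31617522 to 31638984 (21463 bp), with 2 H3K27ac, 6 H3K4me1 and 4 H3K4me3 peaks. Of the 169039 such blocks on chromosomes 1 to 22 and X, 48 were longer. It contained the widest H3K27ac peak of the region (31618624 to 31635476, 16853 bp, signal value 31.1) and its widest H3K4me3 peak (31623509 to 31629000, 5492 bp, 32.6).

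The strongest H3K27ac peak of class III, from 32163606 to 32165391, had a signal value of 54.3. H3K4me3 of 48.3 covered 67.1% of it, and its summit lay inside both H3K4me3 and H3K4me1. Between it and the stretch without H3K27ac lay 1 further H3K27ac peak, of 3.43 (32177528 to 32178885). The next strongest of the section were 31701209 to 31707587 (41.2), with H3K4me3 of 56.9, and 31761575 to 31764450 (34.9), with H3K4me3 of 51.6. The strongest H3K4me3 peak of the whole region ran from 31801653 to 31806357 (69.2) with H3K27ac of 33.0 on it. It was followed by 32142503 to 32147673 (63.0, with H3K27ac of 22.8) and 31507289 to 31511604 (58.6, with H3K27ac of 32.7).

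The 3 strongest H3K4me1 peaks of the region were all in class III and all poor in H3K4me3. The first, from 31742004 to 31747653 (11.6), overlapped H3K27ac of 6.34 and H3K4me3 of 3.01. The second, from 32052966 to 32055267 (11.4), overlapped H3K27ac of only 1.57, which covered 19.6% of it. The third, from 31907005 to 31913508 (11.2), overlapped no H3K4me3, but 6 H3K27ac peaks of up to 19.3 covered 84.7% of it. High H3K4me1 signal was thus found both with strong and with faint acetylation.

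The remaining leading peaks of class II lay toward its centromeric end. They were H3K27ac from 33164755 to 33170970 (42.2, with H3K4me3 of 50.3) and from 33238575 to 33243723 (38.7, with H3K4me3 of 43.3). For H3K4me3 they were 33174795 to 33177124 (51.6) and 33289489 to 33292091 (50.5). The strongest H3K4me1 peak of class II, from 33163266 to 33167563 (10.2), overlapped the first of these H3K27ac peaks. The next, from 33172865 to 33175715 (9.12), lay wholly inside another H3K27ac peak, from 33171617 to 33176929 (23.8). Both H3K4me1 peaks belonged to a block of marks of 14370 bp, from 33163266 to 33177635, the second longest of the region.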

How the data were processed

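HepG2 ChIP-seq was labelled as 12 libraries in 4 groups of 3. Only the 3 pooled peak lists, 1 per mark, were analysed. Per the submitters' processing notes MACS2 and hg19 were used. Aligner, caller version, threshold, use of the controls and the treatment of reads that align to several places are not given in the sources used here. The signal value, the −log10 q-value and the score (not used) of each peak were deposited by the authors. The summit offset, from the authors' lists, gave summit positions. Peaks ended past 14 of 24 GRCh38 chromosome ends and past 0 of 24 GRCh37 ends (lengths from GenomeInfoDb 1.38.1).

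Positions are counted from 1. Marks were shared from 1 bp of overlap, and the background was chromosomes 1 to 22 and X (3036.3 Mb, with assembly gaps left in). No peaks of a list overlapped, and no alternate haplotype sequences were listed. Named peaks are the 3 with the highest signal value per section and mark, the 3 strongest enhancer-like peaks, the widest peak per mark and the 5 longest empty stretches. Others were named after their values were seen. Members and lists were chosen with earlier results of these data known. Python 3.11.15, numpy 2.4.6, pandas 2.3.3, scipy 1.17.1 and matplotlib 3.10.9 were used. Interval functions were tested on simulated data.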

Additional observations from a re-analysis of the deposited data

How the results depend on the processing

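The 9 results were given 45 alternative values. Of these, 32 stayed within 1.5 times the main count or within the interval of the main ratio, and 13 moved further. The 32 include the values with membership by summit, which could change only the 1 H3K4me1 peak across an outer bound. Those values were therefore bound to stay. No density ratio reversed, and for counts a reversal was not defined. The stronger 50% of each list left 316 H3K4me1 peaks, 142 of them H3K4me1-only, and 132 H3K27ac peaks, 40 of them enhancer-like, with density ratios of 3.17 for H3K27ac and 6.01 for H3K4me3. Joining peaks within 1000 bp gave 343 H3K4me1, 56 enhancer-like and 145 H3K4me1-only peaks. At a −log10 q-value of 5 or more there were 171 H3K4me1-only peaks. Equal numbers per list, added after seeing the data, gave 8 enhancer-like and 33 H3K4me1-only peaks. Fewer peaks follow from how these settings are built. Against the rest of chromosome 6 the H3K27ac ratio was 3.25. The density ratios ranged from 2.77 to 3.25 for H3K27ac, from 2.45 to 2.78 for H3K4me1 and from 4.13 to 6.01 for H3K4me3. Requiring 50% of a peak to be covered gave 111 promoter-like and 108 enhancer-like H3K27ac peaks. It raised the H3K4me1-only peaks from 295 to 394, the highest of their alternative values. The acetylation-free stretch of class II was 626.4 kb in 4 of the 5 sets of peaks and 639.9 kb with equal numbers per list. Shares of gene starts inside peaks were planned and not run, since an annotation of the build was not used here. No paired analysis was possible because the lists are pooled over replicates, and leaving out a replicate was not possible for the same reason. Depth is unknown, so weak or missing peaks were not separated from shallow sequencing.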
